A study of Mus musculus with 3 samples.

Results

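The regions described are autosomal H3K36me3 peaks of at least 1000 bp but under 10 kb whose signal in regulatory T (Treg) cells of the large intestine was at least 1.8 times that in splenic Treg cells. They were selected on those measured values, after each library was scaled to its total over all peaks, so the higher intestinal signal is how they were chosen and is not a finding. Of 120910 peaks in the deposited mm10 table, 27287 were autosomal and of this length, and 768 of these (2.81%) passed; in the opposite direction 461 (1.69%) had a splenic value at least 1.8 times the intestinal one. Treg cells were sorted as CD3+CD4+YFP+ cells from C57BL/6 mice labelled with the genotype Foxp3-YFP (Foxp3 Cre-YFP in the methods), in which Cre and yellow fluorescent protein are expressed from the Foxp3 locus, and cells of 7 male and 7 female mice were pooled before chromatin was made. Both tissues were taken at steady state, without treatment and with Setd2 intact, and 1 µg of chromatin of each was precipitated with the same H3K36me3 antibody and read with single-end 75 nt sequencing. Mice were 6 to 12 weeks old by the general methods statement, which names no other age for these pools. An input library from splenic Treg chromatin was not analysed here. There was 1 library per tissue and no replicate, so no test was possible and every difference is a description of these 2 libraries. In such bulk chromatin, a lower share of cells carrying a mark and less of the mark per cell cannot be told apart.

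Trimethylation of lysine 36 of histone H3 (H3K36me3) is laid down by SETD2, a methyltransferase that travels with elongating RNA polymerase II. The mark therefore covers the bodies of transcribed genes, usually increasing toward their ends, and is low at promoters. Treg cells restrain immune responses, and those of the intestine carry programmes of tissue residence and effector function that most splenic Treg cells lack.

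To show what such regions look like in the genome, the central 200 bp of 4 of them are printed from the plus strand of GRCm38 (mm10), with CG dinucleotides in capitals. The first lies in an intron of Neb, the gene with the most selected peaks, at chr2:52151849-52152048. The next, in a coding exon of Ahrr at chr13:74222900-74223099, had the largest ratio. The last pair are the extremes of GC content, from a coding exon of Irf2bp2 at chr8:126592805-126593004 and from an intron of Abcb1a at chr5:8699879-8700078.
Neb: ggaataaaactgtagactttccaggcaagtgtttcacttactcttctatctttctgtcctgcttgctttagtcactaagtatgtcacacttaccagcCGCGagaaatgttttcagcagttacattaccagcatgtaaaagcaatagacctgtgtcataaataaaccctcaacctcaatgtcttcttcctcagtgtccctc
Ahrr: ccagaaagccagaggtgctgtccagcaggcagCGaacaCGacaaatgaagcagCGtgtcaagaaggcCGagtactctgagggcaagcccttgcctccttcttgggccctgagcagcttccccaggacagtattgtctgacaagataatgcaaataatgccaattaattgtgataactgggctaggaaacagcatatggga
Irf2bp2: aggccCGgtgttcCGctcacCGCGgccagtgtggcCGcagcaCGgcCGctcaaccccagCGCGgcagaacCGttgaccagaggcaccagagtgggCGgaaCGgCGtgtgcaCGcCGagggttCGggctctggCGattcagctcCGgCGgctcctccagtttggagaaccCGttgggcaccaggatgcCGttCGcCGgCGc
Abcb1a: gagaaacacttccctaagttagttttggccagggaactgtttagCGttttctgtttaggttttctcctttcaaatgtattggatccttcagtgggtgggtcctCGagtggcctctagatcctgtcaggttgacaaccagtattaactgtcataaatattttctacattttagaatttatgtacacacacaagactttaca

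The Irf2bp2 stretch held 24 CG dinucleotides and the Ahrr stretch 4, against 2 each in the Neb and Abcb1a stretches. Over the whole peaks, GC content was 71.9% in Irf2bp2, 43.3% in Neb, 42.0% in Ahrr and 37.6% in Abcb1a. The peak in Irf2bp2 went from 12.6 RPKM in spleen to 24.7 RPKM in large intestine, a ratio of 1.90. The peak in Abcb1a went from 5.45 to 12.1 RPKM, a ratio of 2.16.

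One selected peak, at chr8:84206780-84210686, covered a cluster of microRNA genes. Its midpoint lay outside coding genes, 1.945 kb past the end of the coding gene Zswim4. The mature sequences that the main genes of the cluster encode are printed because they name the cluster's products. The seeds, bases 2 to 8, are in capitals, and the sequences and their GRCm38.p6 positions are those of RefSeq, on the plus strand at chr8:84208563-84208583, chr8:84208727-84208747 and chr8:84208875-84208896.
mmu-miR-23a-3p: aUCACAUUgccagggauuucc
mmu-miR-27a-3p: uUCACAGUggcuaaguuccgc
mmu-miR-24-3p: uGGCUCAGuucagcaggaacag

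The seeds of the 3 microRNAs differ from each other. The peak over Mir23a, Mir27a and Mir24-2 measured 14.7 RPKM in splenic and 28.1 RPKM in intestinal Treg cells, a ratio of 1.85 with a 95% counting interval of 1.55 to 2.22. It also held Mir3074-2 on the opposite strand of Mir24-2. The mark lies on chromatin of both strands, so it does not show whether it belongs to one of these overlapping genes or to Zswim4. MicroRNA levels were not measured.

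Signal is given throughout as RPKM, the read density averaged over a peak and normalised for length and library size, which is comparable between peaks of different length. Among the 768 peaks the splenic value ran from 0.919 through a median of 6.93 to 20.1 RPKM, and the intestinal value from 9.05 through a median of 16.5 to 37.4 RPKM. The 26519 other long autosomal peaks had medians of 14.1 RPKM in splenic and 14.4 RPKM in intestinal Treg cells. The selected peaks thus sat below the usual level of long peaks in spleen and slightly above it in large intestine. Selection by the ratio favours low splenic and high intestinal values, so both directions follow largely from the rule. The scaled ratio of the selected peaks, large intestine over spleen, had a median of 2.25 and reached 12.2, with 541 at 2 or more and 68 at 4 or more, whereas the other long peaks had a median ratio of 0.998. The selected peaks were shorter, with a median of 1474 bp against 1849 bp. Shorter peaks rest on fewer reads at a given level, and 16.1% of autosomal peaks under 1000 bp had a ratio of at least 1.8. The part of counting error in the shorter length was not tested.

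**Figure D1:**
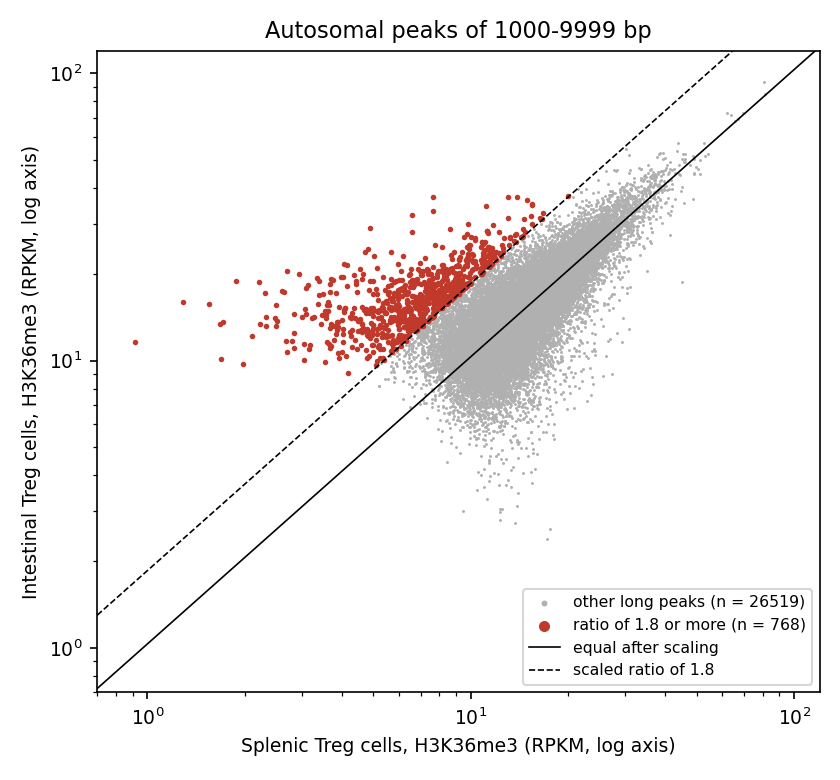
Each point is 1 autosomal peak of at least 1000 bp but under 10 kb, with its mean H3K36me3 signal in splenic Treg cells on the x axis and in intestinal Treg cells on the y axis, both in RPKM on log axes. The 768 selected peaks (red) lie above the dashed line of a scaled ratio of 1.8 by construction, and most lie left of the bulk of the other 26519 peaks (grey), at splenic values below about 10 RPKM.

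The distribution had no gap at the threshold. The 5 peaks nearest above it, in Rora, Atcay, Atp2b4, Raph1 and Micu2, had ratios from 1.80004 to 1.80192, and the 5 nearest below it, in Alg9, Ptprj, Atp6v0a1, Ssbp3 and Osbpl3, had ratios from 1.79679 to 1.79991. Just inside, the Rora peak measured 6.31 RPKM in splenic and 11.7 RPKM in intestinal Treg cells. Just outside, the Alg9 peak measured 8.47 and 15.7 RPKM. Peaks on either side of the line are therefore alike, and membership near it is a matter of the chosen value.

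Counting error limits the ratio of a single peak. The smallest steps in the values correspond to 2.96e+07 mapped reads for spleen and 3.81e+07 for large intestine, and at 200 bp of coverage per read a selected peak rested on a median of about 29.3 splenic and 94.4 intestinal reads. An unextended 75 nt read covers less than 200 bp, so these read numbers are low estimates. The approximate 95% counting interval of the ratio lay above 1 in 768 of the 768 peaks and above 1.8 in 206 of them. The intervals use the same values as the selection and are not corrected for it. The first count therefore follows largely from the rule and does not exclude counting error. Intervals and read numbers cover counting error only, not differences between mice, sorts or precipitations.

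Selected peaks gathered in few genes. Of the 768, 748 had their midpoint in a coding GENCODE M21 gene, and these fell in 347 genes, 5.05% of the 6872 coding autosomal genes with any long peak. Single peaks were the rule, with 227 genes holding 1, but 120 genes held 2 or more and 30 held 5 or more. The leading 2 genes held 66 peaks (8.59%), the leading 10 held 158 (20.6%) and the leading 20 held 237 (30.9%). The host genes were long, with a median of 40.5 kb against 25.4 kb for all coding autosomal genes with a long peak. A gene is a host once 1 of its long peaks passes, so genes with more long peaks have more chances. The part of this in the length difference was not tested. For 40 of the selected peaks the midpoint lay in more than 1 coding gene, and the assignment followed the greater overlap.

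Neb and Nav2 led the list, and both encode very large proteins tied to the cytoskeleton. Neb (chr2:52136647-52378474, minus strand), which encodes nebulin, the giant protein of the muscle thin filament, held 36 selected peaks, which were all of its 36 long peaks. They averaged 4.97 RPKM in splenic and 15.2 RPKM in intestinal Treg cells, weighted by length, a ratio of 2.97 with single peaks between 2.12 and 5.83. The remaining 84 peaks of Neb, all under 1000 bp and so outside the selection, had a median ratio of 3.42, and 120 of its 120 peaks were higher in large intestine. Nav2 (chr7:48908716-49610090, plus strand), encoding neuron navigator 2, held 30 selected peaks of 32 long peaks. These averaged 7.42 RPKM in splenic and 18.8 RPKM in intestinal Treg cells, a ratio of 2.45, and its 133 peaks under 1000 bp had a median ratio of 2.59. The short peaks, which the rule did not consider, were higher in large intestine in 84 of 84 cases in Neb and 132 of 133 in Nav2. Peaks called in either tissue are listed, so a short peak low in spleen can be listed through its intestinal signal alone. These counts are therefore partly set by the peak calling.

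The other genes of the leading 20 are grouped here by known role only, with no list or background for these roles; the first encode proteins of the cytoskeleton, adhesion or muscle. Ky (chr9:102505750-102546239), a transglutaminase-like peptidase gene tied to muscle, had 8 of 8 long peaks selected, at 2.54 RPKM in splenic and 16.3 RPKM in intestinal Treg cells. Its ratio of 6.22 was the largest of the 20 genes. Hip1, encoding a clathrin adaptor that binds actin, had 10 of 10 long peaks selected, at 4.72 and 19.4 RPKM, a ratio of 3.99. Lamc1, encoding the laminin gamma 1 chain of basement membranes, went from 9.76 to 22.2 RPKM over 12 selected of 13 long peaks. Myo1f, encoding an unconventional myosin of leukocytes, went from 9.02 to 19.7 RPKM over 9 of 10. In Crmp1, encoding a collapsin response mediator of the cytoskeleton, 8 of 8 long peaks were selected, with 7.14 RPKM in splenic and 17.8 RPKM in intestinal Treg cells. Dst, encoding the cytoskeletal linker dystonin, differed least of the 20: 7 of its 16 long peaks were selected, at 8.11 and 16.6 RPKM, a ratio of 1.98.

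Of the leading 20 genes, 3 encode transcription regulators. Rora (chr9:68653786-69388246), encoding the nuclear receptor RORα, held 12 selected of 14 long peaks, at 6.23 RPKM in splenic and 15.7 RPKM in intestinal Treg cells, a ratio of 2.45. Epas1 (chr17:86753700-86833410), encoding the hypoxia-inducible factor HIF-2α, had 7 of 7 long peaks selected, at 3.82 and 18.7 RPKM, a ratio of 4.74. In Epas1 47 of 47 peaks of any length were higher in large intestine, and the 40 unselected ones together had a ratio of 4.60. These values too are partly set by the listing of peaks called in either tissue. Eya2, encoding a phosphatase and transcriptional coactivator, held 7 selected of 8 long peaks, at 6.82 and 15.9 RPKM, a ratio of 2.26.

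The rest of the leading 20 act in membranes, transport, protein modification and stress signalling. Abcb1a, encoding the efflux pump P-glycoprotein, held 11 selected of 14 long peaks, at 6.64 RPKM in splenic and 14.5 RPKM in intestinal Treg cells. Atp2b4, a plasma membrane calcium pump gene, held 9 of 12, at 7.64 and 17.95 RPKM, and Osbpl3, encoding an oxysterol-binding protein relative, held 14 of 17, at 8.99 and 20.1 RPKM. Galnt2, which starts mucin-type O-glycosylation, held 9 of 14, at 11.8 and 25.1 RPKM, the highest splenic level of the 20. Ern1, encoding the unfolded-protein sensor IRE1α, had 8 of 8 selected, at 5.76 and 15.6 RPKM. For Cpd, encoding carboxypeptidase D, 7 of 7 were selected, and the values of 4.84 and 15.3 RPKM gave a ratio of 3.06. Tex2, encoding a lipid-binding membrane protein, held 10 of 13, Dennd4a, an exchange factor gene for Rab proteins, held 9 of 16, and Ttc39c, encoding a tetratricopeptide repeat protein, held 14 of 14. The ratios of these last genes were 2.21, 2.24 and 2.25.

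**Figure D2:**
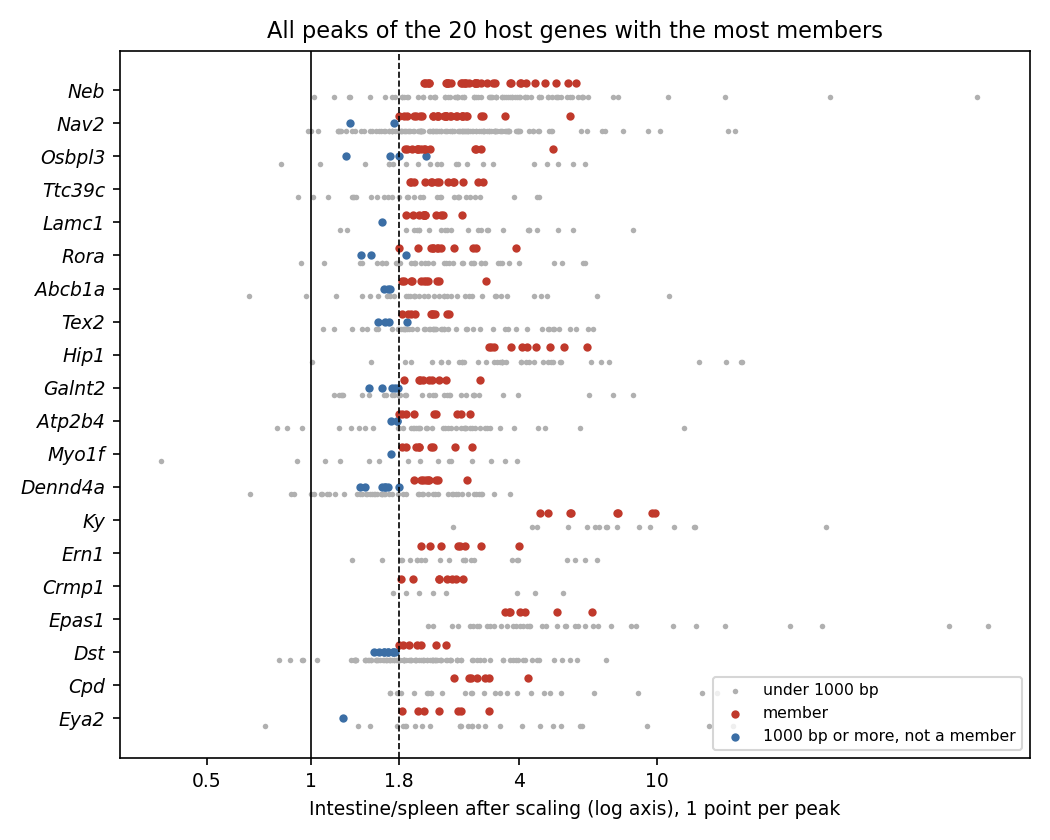
Each row is 1 of the 20 genes with the most selected peaks, and each point is 1 of its peaks at its scaled ratio of large intestine over spleen (log axis): selected peaks in red, other peaks of 1000 bp or more in blue, including those of 10 kb or more that the length limit left out, and shorter peaks in grey. Solid and dashed lines mark ratios of 1 and 1.8, 3 short peaks of Hip1 at 0 in spleen are not drawn, and the grey points of most genes lie to the right of 1.

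The peaks of a host gene that were not selected give a measure the rule did not use directly, although they share the gene and the libraries. Their direction is partly set by the peak calling, since peaks called in large intestine alone are listed too. In 331 host genes with other peaks, these had a median ratio of 1.596, it was above 1 in 318 genes, and it reached 1.8 in 125 (37.8%). The median of all coding autosomal genes, over all their peaks, was 0.02 on the log2 scale. The shares of all genes above 1 and of at least 1.8 are not given, so these counts stand without a background. Where a gene held 1 selected peak the median over the rest of the gene was 1.41 and 23.1% of 212 genes reached 1.8. In genes with 2 or more selected peaks the median was 1.92, and in those with 5 or more it was 2.09, with 26 of 30 genes reaching 1.8. Unselected long peaks have ratios below 1.8 by the rule, which pulls these medians down, while short peaks vary more: 16.1% of 90971 autosomal peaks under 1000 bp had a ratio of at least 1.8.

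Neighbouring selected peaks formed runs, defined as 2 or more that followed each other with no other long peak between and at most 10 kb apart. There were 118 runs with 423 peaks, 55.1% of the 768. Of these runs, 113 lay within 1 coding gene, 1 reached over 2 coding genes, 2 ran from a coding gene past its end and 2 lay outside coding genes. In all, 25 runs held 5 or more peaks, and the median span was 9.05 kb. For a selected peak whose next long peak lay within 10 kb, that neighbour was also selected in 305 of 490 cases (62.2%), against 207 of 19365 (1.07%) for other long peaks. Neighbours in a gene share the gene's own level, so they are not independent of each other. Peaks in runs had a median ratio of 2.46 and those outside runs 2.04.

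The 5 runs with the most peaks lay in Neb, Ttc39c, Nav2, Lamc1 and across Crmp1 and Evc. The Neb run held 28 peaks over 101 kb, from 4.77 RPKM in spleen to 15.3 RPKM in large intestine, and was the longest. Runs of 14 peaks over 51.9 kb in Ttc39c, 13 over 50.6 kb in Nav2 and 12 over 42.2 kb in Lamc1 came next. The run across Crmp1 and Evc, a cilium gene that overlaps it, held 9 peaks over 26.4 kb, at 7.10 and 17.7 RPKM. It was the run that reached over 2 coding genes.

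**Figure D3:**
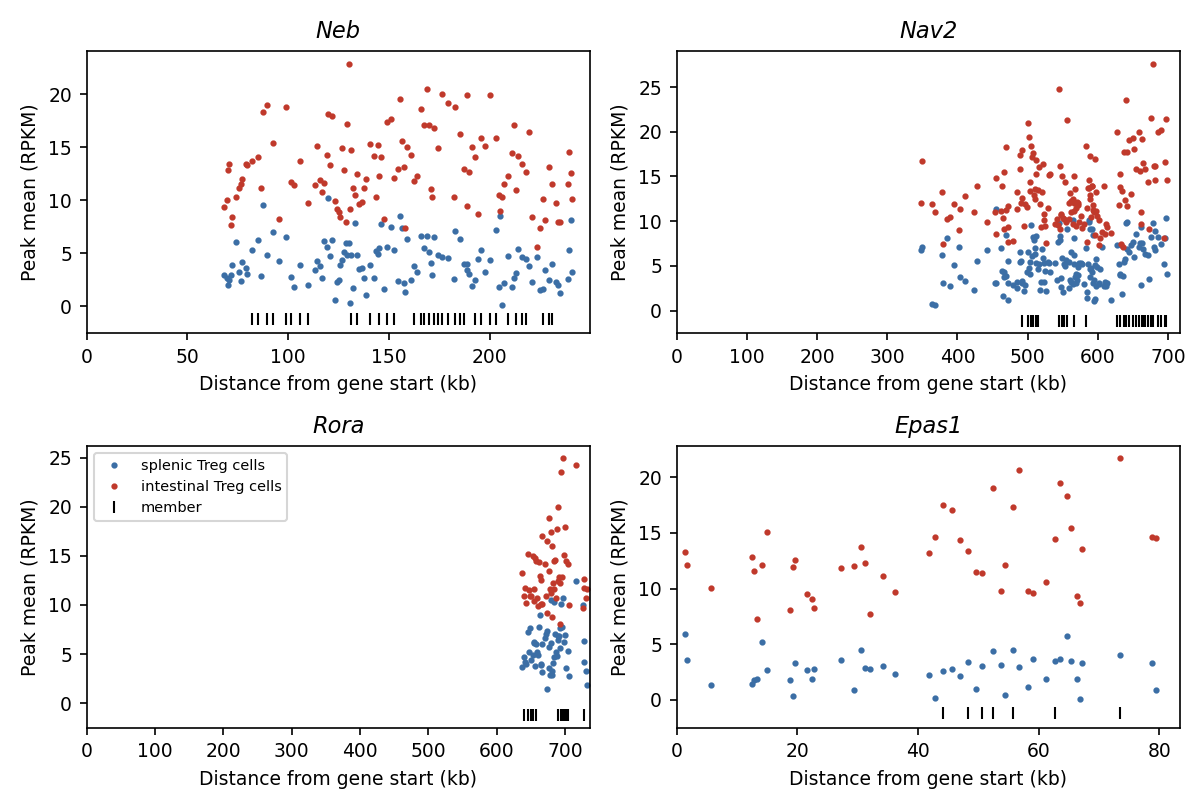
Each panel plots the mean signal of every peak in RPKM against distance from the gene start in kb for Neb, Nav2, Rora and Epas1, with spleen in blue, large intestine in red and ticks for selected peaks. In Neb, Nav2 and Rora the peaks begin well inside the annotated gene, whereas in Epas1 they begin within 2 kb of its start.

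In several long genes the first listed peak stood inside the annotated gene, past an internal transcript start. In Rora, 734 kb long, the first peak of any length stood at 86.8% of the gene, 1.31 kb past a transcript start at 86.6%, and its selected peaks ran from 87.1% to 99.2%. The peaks of Nav2 began at 49.7% of the gene, 10.3 kb past a start at 48.2%, and its selected peaks ran from 70.1% to 99.5%. In Ttc39c the first peak stood 2.83 kb past a start at 31.3%. In Neb the first peak at 28.2% was 24.7 kb past the nearest preceding start, and in Epas1 it was 1.42 kb past the start of the gene itself. The table lists called peaks only, so coverage before these first peaks was not examined, and transcript use was not measured.

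Selected peaks lay toward the ends of their genes, as long peaks do in general. From 0% at the start to 100% at the end, their median position was 71.3%, with an interval of 69.2% to 73.9% over peaks, and that of the other long peaks was 65.8%. The final 10% of the gene held 22.5% of the selected peaks and 15.6% of the others. Counting genes instead of peaks gave a mixed picture. Where each gene counted once by the median of its peaks, the median position was 69.9% for host genes and 65.9% for other long peaks, while 73.8% and 79.8% of genes had that median past their midpoint. The last comparison thus runs the other way. However, 227 of the 347 host genes rest on 1 selected peak each, while the 25665 other long peaks lay in 6733 genes. These gene medians are therefore not alike, and what part genes with many peaks had was not tested.

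**Figure D4:**
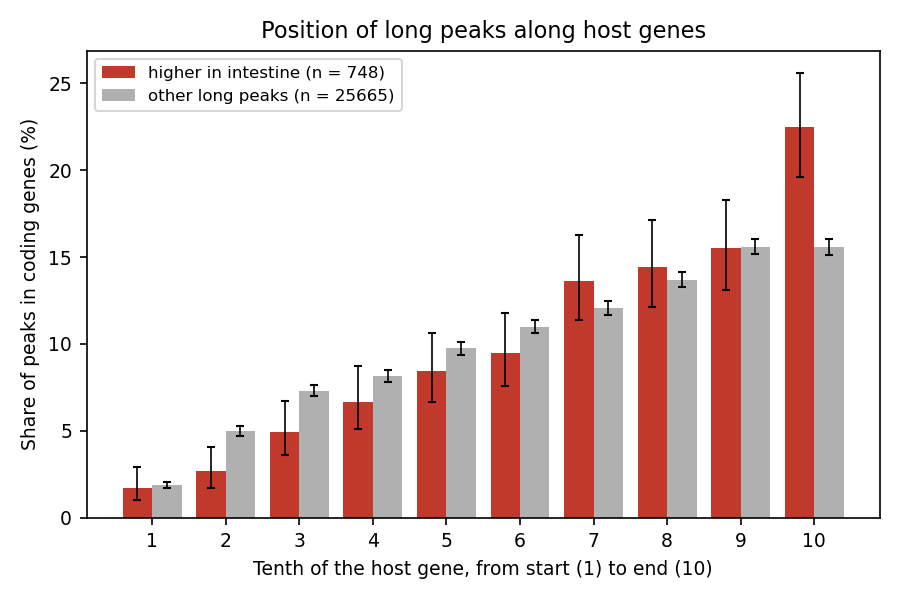
Bars give the share of peaks in coding genes, in percent with 95% Wilson intervals over peaks, in 10 equal bins of the host gene from start to end, for 748 selected peaks (red) and 25665 other long peaks (grey). Both rise along the gene, and the last bin, at 22.5% against 15.6%, is where they differ most.

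Most selected peaks were intronic. By the midpoint, 65.9% lay in introns of coding genes, 12.1% within 1 kb of a coding transcript start, 10.5% in coding exons and 8.85% in non-coding parts of exons. The other long peaks had 62.1% in introns, 15.6% near a start, 9.12% in coding exons and 9.98% in non-coding exon parts. The makeup of both groups was close, with fewer selected peaks near transcript starts. Repeat-masked sequence made up a median of 10.9% of a selected peak and 16.8% of another long peak.

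Only 20 selected peaks lay outside coding gene bodies. Of these, 10 that lay in no gene of another type were within 5 kb past the end of a coding gene. The microRNA cluster peak past the end of Zswim4 was counted under other gene types. The peak past the end of Tox2, which encodes an HMG-box transcription factor, went from 3.02 to 14.2 RPKM, a ratio of 4.55, and Tox2 itself held 6 selected peaks. A pair of peaks in Ptprv, annotated as a processed transcript, measured 5.97 and 10.1 RPKM in splenic and 16.7 and 26.9 RPKM in intestinal Treg cells. Both examples were named after their values were seen. Further microRNA genes in selected peaks were Mir7062 in Adam8, Mir6919 in Mgat4b and Mir6945 in Pdlim7. The Adam8 peak, 7180 bp long, went from 7.66 RPKM in spleen to 37.1 RPKM in large intestine, a ratio of 4.69.

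GC content differed between selected and other long peaks. Its median was 49.8% against 46.3%, and the ratio followed it over all long peaks. With long peaks divided by GC content into 10 bins of equal number, in the lowest bin the median ratio was 0.837 and 0.806% were selected, and in the highest bin the median ratio was 1.16 and 7.44% were selected. Peaks higher in spleen ran the other way, from 3.85% in the lowest bin to 0.916% in the highest. Such a trend over all long peaks moved with the selection, and its part in the result was not tested. With each ratio divided by the median of long peaks of like GC content, 594 of the 768 (77.3%) still passed 1.8. Within host genes the selected peaks had a GC content 0.375 percentage points above the gene's other peaks in the median, and higher in 189 of 331 genes. This was smaller than the difference between the groups. The gene's other peaks were of any length, including those under 1000 bp, whereas the groups held long peaks only, so these differences are over unlike sets.

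**Figure D5:**
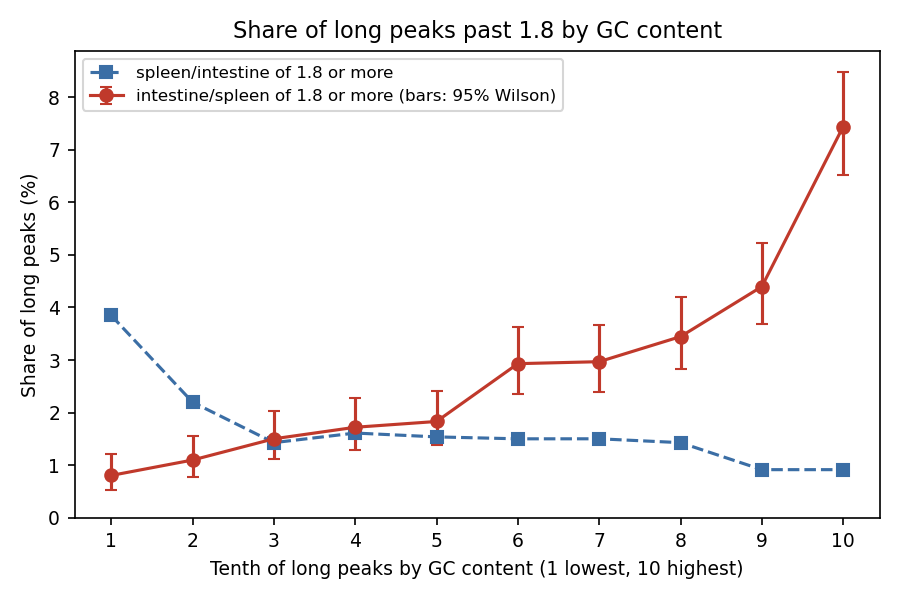
Long autosomal peaks are divided into 10 bins of equal number by GC content (x axis), and the share with a ratio of at least 1.8 is given in percent for large intestine over spleen (red, with 95% Wilson intervals over peaks) and spleen over large intestine (blue). The red line rises from 0.806% to 7.44% and the blue line falls from 3.85% to 0.916%.

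Genes of the colonic Treg signature, a list that the study took from expression data of other samples, held much of the group. Of the 768 peaks, 379 (49.3%) lay in 104 of the 234 colonic signature genes that had a long peak, while these genes held 3.67% of all long autosomal peaks. The list was defined by higher expression in colonic than in splenic Treg cells, so a high count follows its direction. The study also reported more of this mark over these genes in intestinal than in splenic Treg cells, from the same libraries. The splenic Treg signature, with 294 genes and 1145 long peaks (4.20% of all long autosomal peaks), held 0 selected peaks. Its genes were defined by higher expression in splenic than in colonic Treg cells, so a low count follows the direction of the list. The full list of 1114 genes that the study ranked for ST2+ Treg cells, which carry the interleukin-33 receptor, held 152 peaks (19.8%) in 39 of its 154 genes with a long peak, while those genes held 2.28% of all long autosomal peaks. The lists overlap, since 73.0% of the ST2 peaks were in colonic genes too.

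Inside and outside the colonic signature the selected peaks had different values. The 379 colonic peaks had a median of 6.19 RPKM in splenic and 16.3 RPKM in intestinal Treg cells, a median ratio of 2.47, a GC content of 47.6% and 76.3% of peaks in runs. The 389 others had 7.68 and 16.6 RPKM, a median ratio of 2.07, a GC content of 52.2% and 34.4% in runs. Counting intervals above 1.8 were held by 40.9% of the colonic and 13.1% of the other peaks. After the GC correction 90.2% of the colonic and 64.8% of the other peaks still passed. In the colonic host genes the unselected peaks had a median ratio of 2.04, against 1.46 in the other host genes. The GC content farthest above that of other long peaks was thus found outside the colonic signature. Within colonic host genes the selected peaks differed from the rest of the gene by a median of -0.277 percentage points of GC content.

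The splenic value is the denominator of the ratio, so a ranking by ratio favours low splenic values by construction. Among peaks with an interval above 1.8, the Ahrr peak at chr13:74222324-74223676, in the gene of the aryl hydrocarbon receptor repressor, had 0.919 RPKM in splenic and 11.6 RPKM in intestinal Treg cells. Its ratio of 12.2 carried an interval of 4.27 to 35.0, since spleen rested on about 3.69 reads. C2cd4d followed at 1.29 and 15.97 RPKM, a ratio of 12.01, and 4 Ky peaks stood among the leading 10 with ratios from 7.69 to 9.88. The receptor-activity-modifying protein gene Ramp3 had 2.71 and 20.5 RPKM, the secreted factor gene Metrnl 2.31 and 17.3 RPKM, and the kinase substrate gene Cables1 2.22 and 18.8 RPKM.

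Effector genes of tissue Treg cells hosted 35 selected peaks, in 14 of the 25 listed genes with a long peak (56.0%, against 5.05% of all coding genes with a long peak). The list held 4.56% of the selected and 0.312% of all long autosomal peaks. This and the assembled lists below were chosen with earlier results of these data known, so their shares are descriptions only. Besides Rora these included Itgae, encoding the CD103 integrin that binds epithelial cadherin, with 4 peaks between 8.61 and 9.99 RPKM in splenic and between 16.9 and 23.3 RPKM in intestinal Treg cells. Tigit, an inhibitory receptor gene, held 3, and the longest of them measured 9.97 and 19.4 RPKM. Prdm1, encoding the repressor Blimp-1, held 3, with its longest peak at 10.8 and 25.9 RPKM. The median gene of this list was higher in large intestine by 0.88 on the log2 scale, against 0.02 over all coding autosomal genes.

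The aryl hydrocarbon receptor and hypoxia lists each had few host genes with several peaks. Of 6 listed Ahr and xenobiotic genes with a long peak 2 hosted one (33.3%, against 5.05% over all genes). Ahr, the receptor, held 5 selected peaks with ratios from 1.90 to 2.96, and Ahrr held 3 with ratios from 5.31 to 12.2. Summed over its peaks, Ahrr had 21.3 RPKM·kb in spleen and 163 RPKM·kb in large intestine, whereas Ahr had 192 and 372 RPKM·kb. Of 11 hypoxia genes with a long peak 2 hosted one (18.2%). Epas1 held 7 and Egln3, an oxygen-sensing prolyl hydroxylase gene, held 2, at 6.93 and 3.89 RPKM in splenic and 16.4 and 13.1 RPKM in intestinal Treg cells. The median hypoxia gene differed by 0.03 and the median Ahr list gene by 0.09 on the log2 scale, so the lists as wholes did not move like these members.

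Receptor and signalling lists are set beside the 5.05% of all coding genes with a long peak that hosted a selected one. Of 13 gut homing and tissue receptor genes with a long peak 5 (38.5%) hosted 9 peaks, namely Gpr55, Cd44, Ccr2, Gpr15 and Itgav. Gpr15, a colon-homing receptor gene, had 1 peak, at 2.33 RPKM in splenic and 14.2 RPKM in intestinal Treg cells, a ratio of 5.94. Ccr2, a chemokine receptor gene, measured 3.79 and 13.2 RPKM. Of 22 cytokine signalling regulators 6 (27.3%) hosted 12 peaks. Il18rap, a subunit gene of the interleukin-18 receptor, had 6 of 6 long peaks selected, at 6.13 and 15.9 RPKM. Its neighbour Il18r1, the other subunit, held 2 of 5 long peaks. Of 19 immediate early and stress genes 6 (31.6%) hosted 7 peaks, with Fosl2, an AP-1 transcription factor gene, holding 2 at 3.50 and 4.41 RPKM in splenic and 17.1 and 18.5 RPKM in intestinal Treg cells. Of 8 circadian genes 3 (37.5%) hosted 1 peak each, and that of Nr1d1, a clock repressor gene, measured 13.9 and 37.0 RPKM. NF-kB pathway genes hosted 1 peak, in Nfkb1, and 1 of 19 genes (5.26%) is near the share over all genes.

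Genes of lymphoid resting T cells hosted 0 selected peaks among 14 genes with a long peak, which is near the 5.05% over all genes, and their median gene was -1.09 on the log2 scale. The 15 Treg and T cell markers had a peak of some length in 15 of 15 genes, at a summed 5826 RPKM·kb in spleen and 5534 RPKM·kb in large intestine, and hosted 0 selected peaks. Of the 15, 13 had a long autosomal peak. Foxp3 is X-linked, and none of the 7 peaks of Cd4 was of at least 1000 bp but under 10 kb. With 13 such genes, 0 hosts is near the 5.05% over all genes. A selected peak lay 2.31 kb past the end of Zap70. Markers of other cells hosted 0 selected peaks, but few of them could host any: 0 genes of the epithelial and of the mast cell and granulocyte lists had a long autosomal peak, and 1 or 2 genes of each other list did. Epithelial markers had a peak in 3 of 19 genes (Epcam, Cldn7 and Vil1), summing to 13.3 RPKM·kb in spleen and 26.1 RPKM·kb in large intestine, and Cdh1, Muc2 and Krt8 had no peak. Those of B and plasma cells had one in 4 of 15 genes, at 30.8 and 29.3 RPKM·kb. Of these, Cd79a and Cd22 were lower and Cd79b and Pax5 higher in large intestine. Those of myeloid cells had one in 2 of 17, at 66.5 and 68.8 RPKM·kb. Among CD8, NK and innate lymphoid markers 3 of 12 genes had a peak, at 56.4 and 72.9 RPKM·kb. Hpgds went from 18.9 to 38.4 RPKM·kb, Cd8b1 from 5.41 to 2.43 RPKM·kb, and Tbx21 was at 32.1 RPKM·kb in both. For mast cells and granulocytes it was 1 of 13, Kit, at 0.270 and 1.496 RPKM·kb. For stroma, endothelium and glia it was 2 of 15, at 1047 and 598 RPKM·kb, nearly all of it in Pecam1. Pecam1 went from 1036 to 577 RPKM·kb, whereas Col1a1, the other gene, went from 10.4 to 20.9 RPKM·kb. The part of other cell types in the selected peaks was not tested.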

How the data were processed

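H3K36me3 chromatin immunoprecipitation libraries of splenic and intestinal Treg cells (1 per tissue) were compared. Per the methods and labels, the authors mapped reads to mm10, called MACS2 peaks at p 0.01 against input and merged both tissues' peaks. The deposited values are RPKM coverage averaged over each merged peak by the authors, not read counts; versions were not given in the sources used here, and 0 columns were left unused. Each column was divided by its total over all 120910 peaks (large intestine over spleen, 1.03). Host genes came from GENCODE M21, GC content from the GRCm38 genome, past whose chromosome ends 0 peaks ran. Ratios were computed with Python 3.11.15, pandas 2.3.3 and scipy 1.17.1, tested on simulated data, with 95% counting intervals at 200 bp per read. No pseudocount or filter on low values was used. Named genes were the 20 with the most selected peaks, the 10 largest ratios with an interval above 1.8, the 5 runs with the most peaks, the 5 nearest peaks on either side of 1.8 and up to 5 hosts per gene list; an item that these rules would name is not reported here. The members and lists were chosen with earlier results of these data known. Signature lists were taken whole from the study, which derived them from published expression data of other samples; the rest were assembled from general knowledge. Alternatives changed scaling, ratio, length, pseudocount, low-value filter, GC content (20 bins), counting interval, gene assignment and run gap; no test was made.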

Additional observations from a re-analysis of the deposited data

How the results depend on the processing

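Of 89 values of the main results under other settings, 62 stayed within their error or within 1.5 times the count, 27 moved and 0 turned direction. A ratio of 1.6 gave 1250 peaks, 600 host genes and a colonic share of 36.88%, and a ratio of 2 gave 228 host genes and a colonic share of 58.23%. A length of at least 2000 bp gave 229 peaks in 131 genes, with 98.69% in coding genes, a median GC content of 50.78%, a median position of 77.27%, a colonic share of 53.28% and 42.79% in runs. Only intervals wholly above 1.8 gave 206 peaks in 89 genes, with a GC content of 50.29% and a colonic share of 75.24%. A mean of at least 10 RPKM gave a GC content of 50.99%, a colonic share of 44.72% and 45.97% in runs. The GC correction gave 650 peaks, a GC content of 47.79%, a colonic share of 55.38% and 59.08% in runs. Assigning peaks to the nearest transcript start of any gene type gave a colonic share of 36.98%. Gaps of 50 kb or without limit put 59.11% and 60.42% of peaks in runs. Without Neb and Nav2, chosen after seeing the data, 44.59% were colonic and 51.00% were in runs. The causes were not tested, beyond fewer or more peaks passing. Values as deposited gave 860 peaks, length-weighted totals 694 and the median ratio 744. Of 220 peak numbers in named host genes, 50 moved and 0 turned.

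With 1 library per tissue there was no replicate to leave out. No paired analysis was possible because each tissue had 1 library and the result comes from no test. Depth limits the ratio of single peaks: a selected peak had a median of about 29.3 splenic reads.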

Other observations

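The same ratio of 1.8 was passed by peaks outside the length or chromosome limits. Among 602 autosomal peaks of 10 kb or more, 7 passed, in Tex2, Asb2, Ehd1, Runx3, Fosl2, Osbpl3 and Rora. The peak in Asb2, encoding a ubiquitin ligase subunit, went from 8.15 RPKM in spleen to 38.1 RPKM in large intestine, a ratio of 4.53 with a 95% counting interval of 4.01 to 5.13. The peak in Fosl2, which lies past the gene's selected long peaks, went from 9.57 to 34.3 RPKM, a ratio of 3.47. The peak in Runx3, encoding a transcription factor of lymphocytes, measured 17.9 and 36.6 RPKM, a ratio of 1.98. Of 248 long peaks on the X chromosome 2 passed, in Bcorl1 at 5.11 and 11.1 RPKM and in L1cam at 7.35 and 13.8 RPKM. These genes were named after their values were seen.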
